A study of Mus musculus with 17 samples.

Results

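The genes described here encode the membrane carriers of glucose, lactate and amino acids, and the question was which of them carried islands of the histone variant H3.3 in newborn mouse lens epithelium and in lens fibers. Members were the protein-coding genes on chromosomes 1 to 19 whose symbols place them in the solute carrier families Slc1a, Slc2a, Slc5a, Slc6a, Slc7a, Slc16a or Slc38a. The rule found 88 genes of 20807 protein-coding genes in the GENCODE vM21 annotation of mm10. The rule used symbols and no measured value.

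H3.3 was mapped by chromatin immunoprecipitation and sequencing (ChIP-seq) in 4 libraries, 2 of microdissected lens epithelium and 2 of microdissected lens fibers. All mice were of the outbred CD-1 stock (genotype CD1 in the labels), and the labels give no allele and no treatment for any group. The sample titles give the age as postnatal day 1 (P1), whereas the protocol and the methods give P0.5, and the sexes were not given. Each library was prepared from pooled lenses (150 per sample by the labels, 200 lenses in the methods) with 12 µg of chromatin, so that a library holds many animals and the spread between replicates does not measure differences between single mice. The series also holds bisulfite sequencing libraries and a ChIP-seq control, which were not analysed here.

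H3.3 is a form of histone H3 that is placed into nucleosomes outside of DNA replication, mostly at active promoters, enhancers and transcribed gene bodies. The lens has no blood vessels, so glucose and amino acids reach its cells from the surrounding fluids through carriers of these families. Lens fibers lose their mitochondria as they mature and rely on glycolysis, which makes lactate that has to leave the cell, and they use amino acids for crystallins and for glutathione, the main antioxidant of the lens.

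Bases of the promoters are shown first for 6 members that stand for the island patterns described in the following paragraphs. Each run covers 200 bases that end 50 bases before the gene's RefSeq start, read 5′ to 3′ along the gene's own strand (RefSeq, GRCm38.p6). Capitals mark each CpG, the pair of bases at which mouse DNA is methylated.
Slc2a1, chr4:119108495-119108694, plus strand: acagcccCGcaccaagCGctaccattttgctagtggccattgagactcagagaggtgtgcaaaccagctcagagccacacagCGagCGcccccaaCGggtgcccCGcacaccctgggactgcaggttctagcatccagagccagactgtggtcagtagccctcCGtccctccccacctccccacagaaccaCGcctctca
Slc38a2, chr15:96699779-96699978, minus strand: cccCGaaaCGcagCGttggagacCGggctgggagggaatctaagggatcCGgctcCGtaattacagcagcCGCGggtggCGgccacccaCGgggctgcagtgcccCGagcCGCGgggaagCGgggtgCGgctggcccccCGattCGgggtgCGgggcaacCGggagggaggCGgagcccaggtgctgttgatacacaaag
Slc16a12, chr19:34747379-34747578, minus strand: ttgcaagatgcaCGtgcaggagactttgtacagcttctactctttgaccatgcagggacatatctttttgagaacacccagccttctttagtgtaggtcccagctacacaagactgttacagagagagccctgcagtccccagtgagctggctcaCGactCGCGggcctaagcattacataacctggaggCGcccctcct
Slc38a8, chr8:119501749-119501948, minus strand: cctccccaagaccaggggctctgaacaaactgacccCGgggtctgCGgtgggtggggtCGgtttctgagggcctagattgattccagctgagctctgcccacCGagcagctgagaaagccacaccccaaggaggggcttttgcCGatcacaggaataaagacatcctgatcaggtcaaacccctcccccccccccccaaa
Slc5a1, chr5:33103969-33104168, plus strand: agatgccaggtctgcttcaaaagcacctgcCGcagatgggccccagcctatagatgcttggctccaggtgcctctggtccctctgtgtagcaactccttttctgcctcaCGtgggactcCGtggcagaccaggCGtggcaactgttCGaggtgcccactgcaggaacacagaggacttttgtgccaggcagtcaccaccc
Slc1a3, chr15:8710858-8711057, minus strand: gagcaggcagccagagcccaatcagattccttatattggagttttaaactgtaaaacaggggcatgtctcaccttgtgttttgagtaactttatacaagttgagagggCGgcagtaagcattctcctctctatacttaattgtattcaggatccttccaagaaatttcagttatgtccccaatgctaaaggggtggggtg
Slc2a1 and Slc38a2 had islands in all 4 libraries, Slc16a12 had broad islands in the fiber libraries, Slc38a8 was covered more widely in the epithelium libraries, and Slc5a1 and Slc1a3 had no island. The printed runs hold 8 CpGs in Slc2a1, 20 in Slc38a2, 5 each in Slc16a12, Slc38a8 and Slc5a1, and 1 in Slc1a3.

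An island is a stretch of the genome in which the peak caller SICER2 found more reads than it required, and the deposited lists give its position and its read count. The libraries held 10389 and 14434 islands in epithelium and 27059 and 35940 in fibers, with 1331369 and 1430373 reads in islands against 5041885 and 5359085. Islands covered 45.4 and 48.9 Mb of the genome in epithelium and 178 and 188 Mb in fibers. Sequencing depth is unknown, so a library with more islands may differ in depth or in H3.3, and these cannot be told apart. Among 8 lens fiber markers, 5 and 6 had islands in the epithelium libraries and 8 and 8 in the fiber libraries, and 4, 6, 5 and 6 of 6 lens epithelium markers did so, fiber libraries last. Mean coverage of the epithelium markers was 19.3% and 54.7% in epithelium and 67% and 65.5% in fibers, and Cdh1, Pdgfra and Pax6 were covered more widely in both fiber libraries and none of the 6 in both epithelium libraries, so that these markers moved with the members, and their part was not tested. Mean coverage of the fiber markers was 31.2% and 46.3% in epithelium and 98.7% and 98.3% in fibers. Of these 8 markers, 7 were covered more widely in both fiber libraries, and Bfsp1 and Lim2 had no island in either epithelium library. The exception was Cryaa, a lens crystallin gene, which was covered by 93.4% or more in every library. Whether the epithelium libraries held fiber cells was not tested. Of the blood markers, Ptprc, Hba-a1 and Hbb-bs had no island and Cd68 had one in every library. Cd68 is 1.94 kb long, and its fiber islands held 1013 and 1050 reads at 34.5 and 36.2 reads per kb. Those islands thus reached far past Cd68, and its neighbouring genes were not checked. The summed coverage of 4 pigment epithelium markers was 0 in both epithelium libraries and 30.5% and 61.1% in the fiber libraries. It was carried by Best1 (30.5% and 49.98%) and by Pmel (11.1% in fiber replicate 2), with Rpe65 and Tyr at 0. No island touched a start of Best1, and whether its islands reached in from a neighbouring gene was not checked. The part of these markers in the results was not tested. The summed coverage of 4 markers each was 4.67% to 9.07% in epithelium and 9.55% to 15.3% in fibers for vessels (Kdr and Tie1 at 0), 6.499% to 46.8% and 12.2% to 24.7% for retina (Crx and Nrl at 0), and 0% and 0% to 29.04% for cornea (Krt12 and Kera at 0). In tissue pools, fewer cells with H3.3 at a gene and less H3.3 per cell cannot be told apart.

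An island was assigned to a gene when it shared at least 1 bp with the gene body or the 1 kb on each side of it. By this measure 27 and 36 of the 88 transporter genes had an island in the epithelium libraries (replicates 1 and 2) and 45 and 53 had one in the fiber libraries. The means were 31.5 ± 6.36 genes in epithelium and 49 ± 5.66 in fibers (SD, n = 2 each), so the fiber counts lay above the epithelium counts with no overlap. The exact two-sided permutation test gave p = 0.33, the smallest value that 2 libraries against 2 can give over 6 splits, and the Benjamini-Hochberg adjusted value over the 4 comparisons of this kind was also 0.33. The shares of members, 30.7% and 40.9% in epithelium and 51.1% and 60.2% in fibers, stood beside 28.6%, 33.5%, 54.5% and 60.5% of all protein-coding genes in the same order of libraries. Members therefore differed from the background by at most a few percentage points in 3 libraries, and epithelium replicate 2 was the library in which their share stood farthest above it.

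The window, meaning the gene body with its flanks, was covered by islands over 11.5% and 12.2% of its length in the epithelium libraries and 20.5% and 23.3% in the fiber libraries, as means over the 88 members. The group means were 11.8% ± 0.508 and 21.9% ± 1.96 (SD, n = 2), a ratio of 1.85 (exact permutation p = 0.33, two-sided). Over all genes the mean coverage was 8.61% and 9.05% in epithelium and 23.6% in each fiber library, a ratio of 2.67. Coverage of the members was thus higher than that of all genes in both epithelium libraries, and lower in both fiber libraries. When every library was reduced to its 10389 densest islands, the fiber minus epithelium difference in mean coverage turned from 10.04 to -0.166 percentage points, and that in genes with an island from 17.5 to -1. With the 10389 islands that hold the most reads the differences were 5.10 percentage points and 0.5 genes, so the choice of islands set the sign.

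Read density, the reads per kb of the islands that touch a window, differed little in its median between the compartments. The median over members with an island was 28.4 and 28.6 reads per kb in the epithelium libraries and 28.1 and 27.6 in the fiber libraries (exact permutation p = 0.33, two-sided), a sign that turned when each density was divided by the median island density of its library (difference of the ratios 0.00536). All genes had 28.5 and 28.3 reads per kb in epithelium and 27.9 and 28.2 in fibers. These medians come from different genes in each library (27, 36, 45 and 53 members), and over the 23 members with islands in all 4 libraries the medians were higher in both fiber libraries, as given with the plot of read density.

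Islands at start sites were counted within 500 bp of any annotated start of a protein-coding transcript. In the epithelium libraries 17 and 24 members had one, and in the fiber libraries 32 and 38 (means 20.5 ± 4.95 and 35 ± 4.24, SD, n = 2, exact permutation p = 0.33, two-sided). All genes had a start island in 17%, 20.8%, 43.3% and 49.6%, in the same order of libraries, against 19.3%, 27.3%, 36.4% and 43.2% of the members. Of the members with an island, 9, 11, 12 and 14 had none at their own start or at that of another protein-coding gene overlapping their window. Their islands touched the body or the flanks, and starts of genes farther out, which whole islands can reach, were not checked. With the 10389 densest islands per library the difference in start islands, fiber minus epithelium, turned to -5.5 genes, and with the islands that hold the most reads it was 4 genes.

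**Figure D1:**
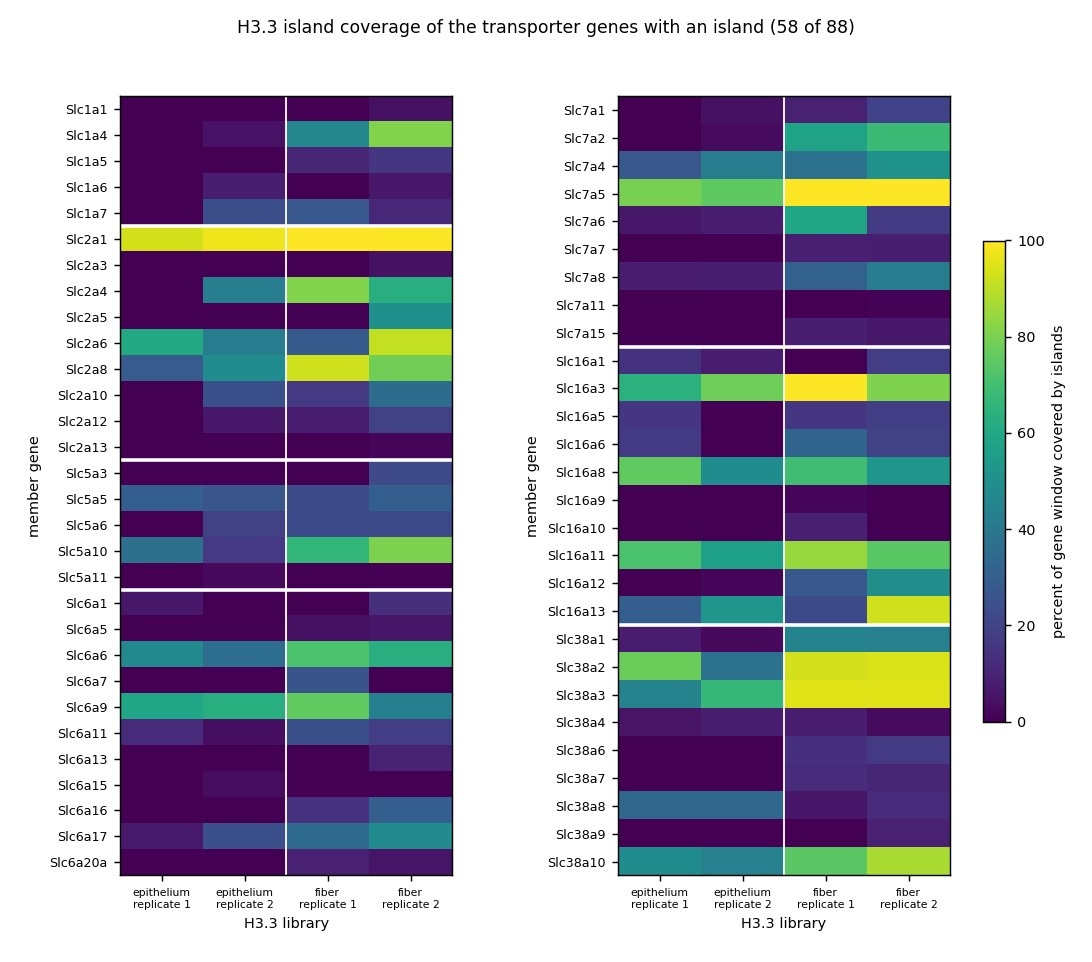
Percent of the gene window (gene body and 1 kb on each side) covered by H3.3 islands in each of the 4 libraries, for the 58 transporter genes with an island in any library, in family order. White lines part the families and the compartments. Slc2a1, Slc7a5 and Slc16a3 are bright in all 4 columns, Slc1a4 and Slc7a2 only in the fiber columns, and Slc38a8 is brighter in the epithelium columns.

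Sorted by library, 23 members had islands in all 4 libraries, which was 26.1% of members against 21.5% of all genes. Another 30 members had no island in any library, 34.1% against 35% of all genes. The pattern of both fiber libraries and neither epithelium library held for 8 members, 9.09% against 16.4% of all genes, with coverage in the fiber libraries from 4.31% (Slc6a5) to 29.99% (Slc6a16), namely Slc1a5, Slc6a5, Slc6a16, Slc6a20a, Slc7a7, Slc7a15, Slc38a6 and Slc38a7. The opposite pattern, both epithelium libraries and neither fiber library, was held by 0 members and by 0.235% of all genes. In 13 members a single library had an island, and Slc5a11 and Slc6a15 had theirs only in epithelium replicate 2. Of the 24 members with islands in both epithelium libraries, 23 also had islands in both fiber libraries, and the exception, Slc16a1, had none in fiber replicate 1. Among all genes, 4482 of the 4652 with islands in both epithelium libraries had them in all 4, so this was not particular to members.

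Coverage was higher in both fiber libraries than in both epithelium libraries for 31 members, 35.2% against 42.5% of all genes. It was higher in both epithelium libraries for 1 member, Slc38a8, which is 1.14% against 0.769% of all genes. Leaving out a library raised that count to 5 (without epithelium replicate 1 or without fiber replicate 2), 3 (without fiber replicate 1) or 2 (without epithelium replicate 2). In the other 26 members with an island the libraries of the compartments overlapped. No single gene can pass a test with 2 libraries against 2, so these counts are descriptions of order. With every library reduced to 10389 islands, 13 members (densest islands) or 15 members (islands with the most reads) lay higher in both fiber libraries. Of the 31, 6 did so in all 3 selections: Slc2a1, Slc5a10, Slc7a2, Slc7a5, Slc7a15 and Slc16a3. Counts with a library left out or with fewer islands were made for members alone. Without the same counts over all genes, they cannot show whether members stand apart from other genes.

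The glucose carriers of the Slc2a family carried the widest coverage of any single member. Slc2a1 (chr4:119108711-119137983, plus strand) encodes GLUT1, the carrier that brings glucose into most cells and the main one of the lens epithelium. Its window was covered over 93.6% and 97.4% in the epithelium libraries and 100% in both fiber libraries. A single island covered it in each fiber library, 37200 and 38800 bp long with 1586 and 1653 reads, while the epithelium libraries had 3 islands with 1200 reads and 2 with 1053 reads. Reads per kb were 33.9 and 32.5 in epithelium and 42.6 in each fiber library, the highest mean in each compartment among members with islands in both of its libraries, and the compartments did not overlap. In the fiber libraries these islands stood at the 99.1 and 98.7 percentiles of all islands by density.

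Slc2a4, which encodes the insulin-responsive carrier GLUT4, had no island in epithelium replicate 1 and was covered over 42.6% in replicate 2, against 80.9% and 62.6% in the fiber libraries, the largest difference of its family. Its gene of 5.65 kb shares its window with Ybx2, so an island there may belong to either gene. Slc2a3, which encodes the neuronal carrier GLUT3, had an island in fiber replicate 2 alone, over 4.48% of its window. The fructose carrier gene Slc2a5 likewise had islands only in fiber replicate 2, but over 50.3% of its window. Their joint density, 20.9 reads per kb, was the lowest of any member in that library. Slc2a8, an intracellular carrier gene, was covered over 28.8% and 48.7% in epithelium and 92.8% and 78.4% in fibers. Of the 12 Slc2a genes, 3, 6, 6 and 9 had islands in the 4 libraries, and the mean coverage was 18.5% ± 4.63 in epithelium and 32% ± 6.89 in fibers.

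The sodium-coupled carriers of the Slc5a family were the sparsest, with 8 of 13 genes without an island in any library. Among those was Slc5a1, which encodes SGLT1, the carrier of glucose uptake in the gut and kidney. Slc5a3 encodes the carrier of myo-inositol, which lens cells take up as an osmolyte, and it had 1 island, in fiber replicate 2, over 22.1% of a window shared with Mrps6 and Gm49711. Slc5a10, which encodes a kidney carrier of mannose and fructose, was covered over 36.8% and 16.8% in epithelium and 66% and 80.4% in fibers. It overlaps Fam83g and Grap, so those islands may belong to its neighbours. Slc5a5, the iodide carrier gene of the thyroid, had 1 island in each library over 23.2% to 29.97% of its window, with 29.4 and 31.8 reads per kb in epithelium against 37.8 and 36.6 in fibers. Its coverage overlapped between the compartments, while its density did not. In library order these islands began at -4.04, -5.44, -5.84 and -6.04 kb from the 5′ end, so they lay mostly outside the gene. They ended 2.56, 2.16, 1.76 and 2.56 kb into it, and the density is that of whole islands. Mean coverage of the family was 5.09% ± 0.0581 in epithelium and 10.2% ± 2.35 in fibers.

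**Figure D2:**
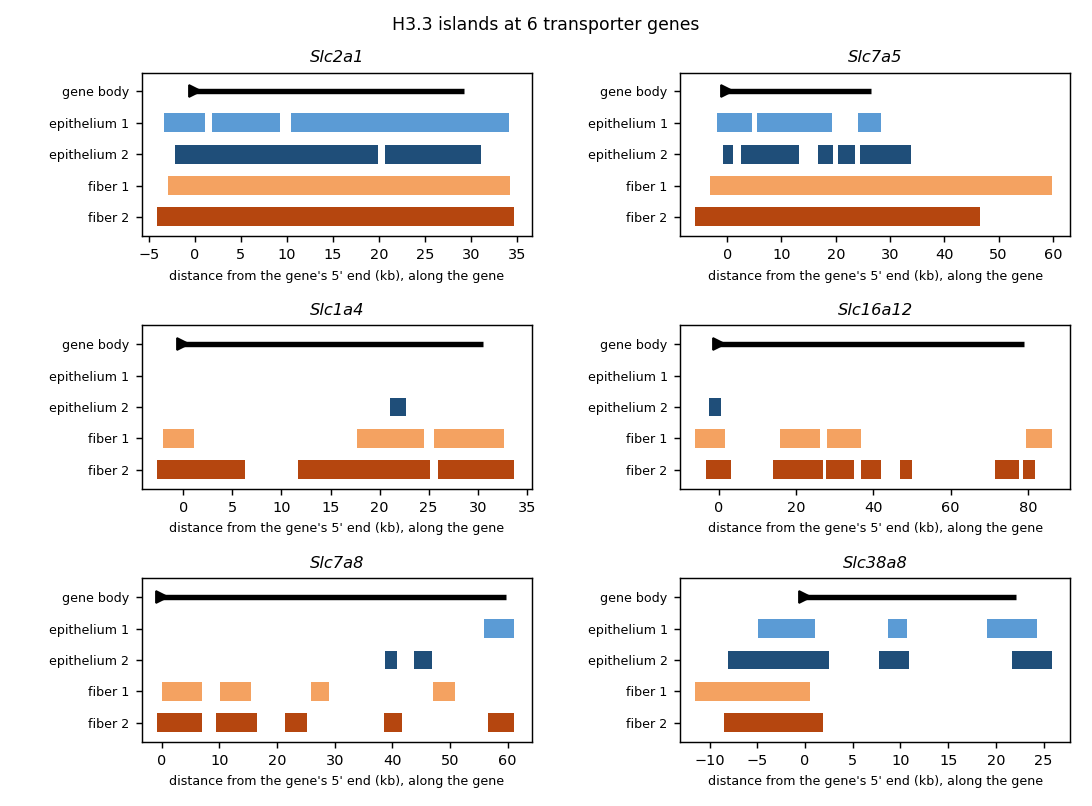
H3.3 islands at 6 transporter genes, 1 row per library, against the distance in kb from the gene's 5′ end along the gene. Black bars are the gene bodies, with an arrowhead at the 5′ end, and colored bars are whole islands that touch the window. Single islands span Slc2a1 and Slc7a5 in each fiber library, and the body islands of Slc38a8 appear in the epithelium rows alone.

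The Slc16a family holds the carriers of lactate and other monocarboxylates, and 7, 6, 9 and 8 of its 13 genes had islands. Slc16a3 (chr11:120948480-120960868, plus strand) encodes MCT4, which exports lactate from glycolytic cells. Its window was covered over 63.9% and 77.8% in epithelium and 100% and 80.5% in fibers, and its reads per kb were 31.1 and 33.4 in epithelium against 33.7 and 37.3 in fibers. Both measures were higher in both fiber libraries, by little in the nearest pair. Csnk1d lies in the same window, and when only islands with at least 50% of their length in the window were kept, the difference in coverage turned from 19.5 to -24.7 percentage points. The turn came from fiber replicate 1, whose single island of 35800 bp runs past the gene and was dropped, while fiber replicate 2 kept its 80.5%.

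Slc16a1, which encodes the widely used lactate carrier MCT1, was covered over 14.7% and 7.95% in epithelium and 0% and 18.0% in fibers, so its libraries overlapped. Slc16a7, which encodes MCT2, had no island. Slc16a8 encodes MCT3, a carrier of the retinal pigment epithelium, and its window of a 3.75 kb gene was covered over 75.6% and 48.5% in epithelium and 69.4% and 52% in fibers. The density there was 30.3 and 31.1 reads per kb against 34.0 and 35.9, so that density but not coverage parted the compartments. Gm49486 lies in the same window, so an island there may belong to either gene. The fiber islands ran from 0.761 to 6.56 kb and from 1.76 to 6.16 kb after the 5′ end. They thus reached past the 3′ end, and the density is that of whole islands.

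Slc16a12 (chr19:34668403-34747289, minus strand) encodes MCT12, a creatine carrier that is mutated in a form of juvenile cataract. It had no island in epithelium replicate 1 and 1 in replicate 2, from 2.51 kb before to 0.488 kb after the 5′ end, over 1.84% of the window. In the fiber libraries 4 and 7 islands with 872 and 1170 reads covered 27.3% and 49.3%, at the start, in the body and at the 3′ end. It showed the largest difference of its family, and its density, 26.0 and 26.6 reads per kb in fibers, lay under the median of the members. With only the densest 10389 islands per library it had none in any library, and with the 10389 islands of most reads it was covered over 0% and 1.84% in epithelium and 27.3% and 37.7% in fibers.

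The Slc1a family carries glutamate and neutral amino acids. Slc1a4 (chr11:20302180-20332713, minus strand) encodes ASCT1, a carrier of alanine, serine and cysteine. Its window had no island in epithelium replicate 1 and was covered over 4.92% in replicate 2, against 45.9% and 80.9% in the fiber libraries. The epithelium island lay in the body, and both fiber libraries also had an island over the start. Slc1a5, which encodes the glutamine carrier ASCT2, had an island at its start in both fiber libraries, over 10.9% and 15.8%, and in neither epithelium library. Slc1a1, which encodes the glutamate and cysteine carrier EAAC1, had 1 island over its start in fiber replicate 2, over 4.39%, and the glial glutamate carrier gene Slc1a3 had none. No Slc1a gene had an island in epithelium replicate 1 and 3 had one in replicate 2, against 3 and 5 of 7 in the fiber libraries.

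The Slc6a family carries neurotransmitters, taurine and glycine with sodium, and 8 of its 19 genes had no island. Slc6a6 (chr6:91684053-91759066, plus strand) encodes the carrier of taurine, an osmolyte of the lens. It was covered over 48.0% and 36.1% in epithelium and 71.6% and 62.6% in fibers, with 27.1 and 26.0 reads per kb against 28.9 and 30.5. Coverage and density were both higher in both fiber libraries. Slc6a9, which encodes the glycine carrier GlyT1, was covered over 59% and 63.2% in epithelium and 75.6% and 43.3% in fibers, with overlap, and its density was higher in epithelium, at 28.3 and 26.7 against 24.9 and 23.7 reads per kb. Its window also holds Ccdc24 and B4galt2. Slc6a17, a carrier gene of synaptic vesicles, had the largest difference in coverage of the family, with 7.28% and 24.4% against 35.1% and 48.4%. Slc6a5, which encodes the glycine carrier GlyT2, had islands only in fibers, over 4.31% and 6.10% of the window, and these were dense, at 35.0 and 36.8 reads per kb. Mean coverage was 6.94% ± 0.0869 in epithelium and 13.1% ± 0.829 in fibers.

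**Figure D3:**
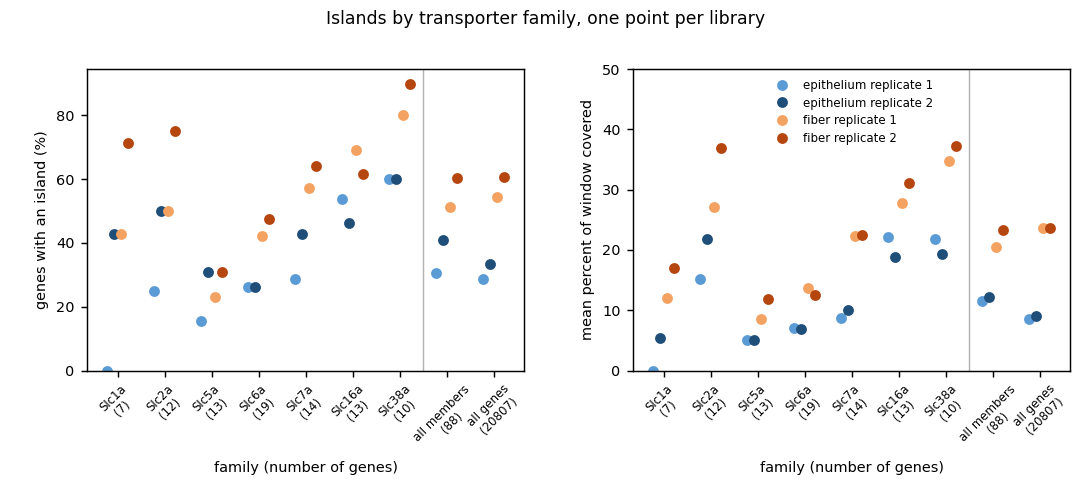
Share of genes with an H3.3 island (left, %) and mean percent of the gene window covered (right), by transporter family and library, with all 88 members and all 20807 protein-coding genes at the right end. Each point is 1 library. Slc38a has the largest share of genes with islands in both fiber libraries, at 80.0% and 90.0%, and Slc5a the smallest, at 23.1% and 30.8%.

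Carriers of cationic and large neutral amino acids and of cystine make up the Slc7a family. Slc7a5 (chr8:121881150-121907694, minus strand) encodes LAT1, which brings leucine and other large neutral amino acids into growing cells. Its window was covered over 79.7% and 75.1% in epithelium by 3 and 5 islands, and over 100% in each fiber library by a single island of 63000 and 52400 bp. Density came to 29.2 and 30.1 reads per kb in epithelium libraries and 38.7 and 39.9 in fibers, with no overlap. The fiber islands reach far past the gene, which Gm20388 overlaps, and with only islands that lie by at least 50% in the window the difference in coverage turned from 22.6 to -22.1 percentage points, since the island of 63000 bp in fiber replicate 1 was dropped and that of fiber replicate 2 was kept.

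Slc7a2, which encodes the arginine and lysine carrier CAT2, had the largest difference in coverage of all members among those whose libraries did not overlap. It was covered over 0% and 2.91% in epithelium and 57.5% and 68.2% in fibers, by 6 and 7 islands with 24.9 and 26.9 reads per kb. Slc7a1, which encodes CAT1, was covered over 0% and 4.56% against 9.27% and 20.3%. Slc7a8 encodes LAT2, a carrier of neutral amino acids, and was covered over 7.76% and 8.42% in epithelium, in the 3′ part of the gene, against 31.1% and 42.4% in fibers, where islands also lay over the start. Its density went the other way, with 26.5 and 28.1 reads per kb in epithelium and 24.4 and 22.6 in fibers. Slc7a8 is therefore a gene with more coverage and less dense islands in fibers, and with the densest 10389 islands its difference in coverage turned from 28.7 to -8.09 percentage points, while with the 10389 islands of most reads it was 11.3. Slc7a11, which encodes the cystine carrier xCT that feeds glutathione synthesis, had 1 island, in fiber replicate 2, over 1.12% of its window.

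Members of the Slc38a family carry glutamine and other small neutral amino acids with sodium, and 9 of 10 had an island in at least 1 library. Slc38a2, which encodes SNAT2, was covered over 77.7% and 37.7% in epithelium and 93.0% and 94.4% in fibers. Slc38a3, which encodes the glutamine carrier SNAT3, was covered over 44.8% and 66.5% against 95.2% in each fiber library, with 32.1 and 32.8 reads per kb against 31.2 and 30.4. Slc38a1, which encodes SNAT1, had 1 island at its start in each epithelium library, over 8.16% and 2.72% of the window, and 3 and 4 islands over 45.2% and 43.7% in fibers. Those in epithelium held 28.0 and 37.5 reads per kb against 27.2 and 27.0 in fibers. All 3 genes had wider coverage in both fiber libraries, and the last pair had denser islands in both epithelium libraries. Mean coverage of the family was 20.5% ± 1.82 in epithelium and 36.0% ± 1.70 in fibers, the highest of the 7 families in fibers.

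Slc38a8 (chr8:119479602-119501698, minus strand), a glutamine carrier gene that is mutated in foveal hypoplasia, was the exception in direction. Its window was covered over 33.6% in each epithelium library by 3 islands with 386 and 500 reads, and over 6.22% and 12.0% in the fiber libraries by 1 island each with 300 and 254 reads. All 4 libraries had an island over the start, and both epithelium libraries had further islands about 8 to 11 kb into the gene and at its 3′ end. Islands held 29.2 and 27.8 reads per kb in epithelium and 25 and 24.4 in fibers. The fiber islands ran from -11.5 to 0.497 kb and from -8.50 to 1.90 kb of the 5′ end. Start islands in epithelium ran from -4.90 to 1.10 kb and from -8.10 to 2.50 kb. Most of the length of these 4 islands lay before the gene, and reads and density are those of whole islands. Coverage was higher in both epithelium libraries also with equal numbers of islands, by either choice of islands. It was the single member with this order among 88, beside 0.769% of all genes.

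**Figure D4:**
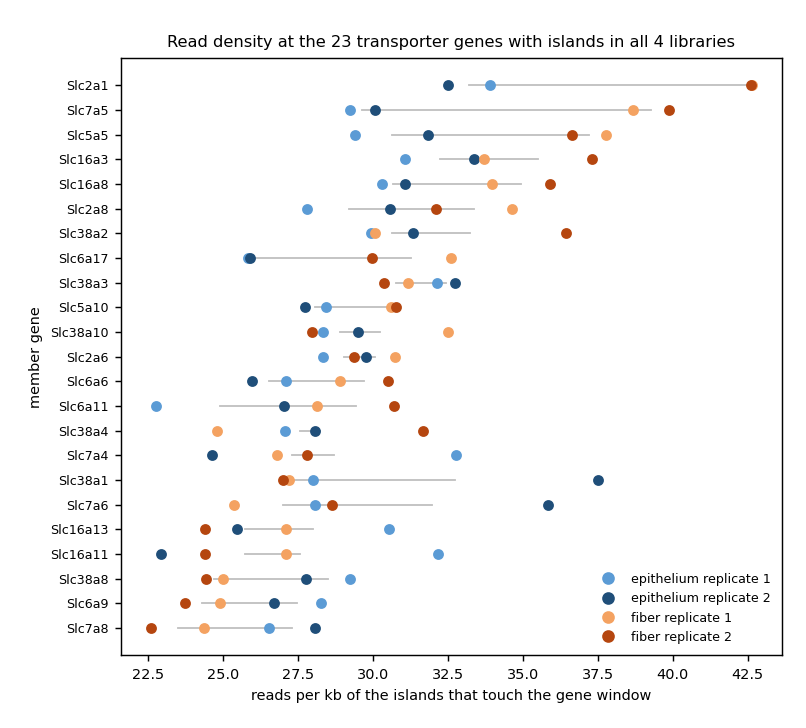
Read density in reads per kb of the islands that touch the window, for the 23 transporter genes with islands in all 4 libraries, sorted by the fiber mean. Points are libraries and gray lines join the means of the compartments. Slc2a1 and Slc7a5 show the largest gaps toward fibers, at 42.6 and 39.3 reads per kb as fiber means, and Slc38a1 and Slc7a8 lie lower in fibers.

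Density could be compared for the 23 members with islands in all 4 libraries, whose medians were 28.4 and 29.5 reads per kb in epithelium and 30.1 and 30.4 in fibers. It was higher in both fiber libraries for 10 of them, 43.5% against 31.3% of the 4482 genes with islands in all 4 libraries. The 10 were Slc2a1, Slc2a8, Slc5a5, Slc5a10, Slc6a6, Slc6a11, Slc6a17, Slc7a5, Slc16a3 and Slc16a8. For Slc2a8 the densest fiber islands, at 39.9 and 34.0 reads per kb, began past the gene's 3′ end and barely touched the window. Fiber islands over the gene held 29.1 (replicate 1) and 29.4 and 29.2 (replicate 2). Those in epithelium held 27.8 (replicate 1) and 30.5 and 30.6 (replicate 2), so these overlapped. It was higher in both epithelium libraries for 5, 21.7% against 15.3%, and these were Slc6a9, Slc7a8, Slc38a1, Slc38a3 and Slc38a8. Slc38a, with 3 of these 5, makes up 6 of the 23 genes compared. Most of the gaps are a few reads per kb, and the exact test cannot pass for any gene.

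Of 23 carriers chosen for a known role in the lens or for being the main carriers of these substrates, 15 had islands in both fiber libraries (51.7% of all genes did), 10 in all 4 (21.5% of all genes), and 3 (Slc1a3, Slc5a1 and Slc16a7) in none (35% of all genes). Coverage of 13 of them was higher in both fiber libraries, against 42.5% of all genes. These carriers were picked with earlier results of the data known.

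Partners and other carriers of the same substrates, 22 genes outside the 7 families, had islands in 9 and 10 cases in the epithelium libraries and 16 and 14 in the fiber libraries, beside 28.6%, 33.5%, 54.5% and 60.5% of all genes. Coverage was higher in both fiber libraries for 12 of the 22 (42.5% of all genes) and higher in both epithelium libraries for 1 (0.769% of all genes). Slc3a2, which encodes the heavy chain that LAT1, LAT2 and xCT need to reach the membrane, was covered over 33.4% and 22.5% in epithelium and 81.6% and 75.6% in fibers. Bsg, which encodes basigin, the partner of the lactate carriers MCT1 and MCT4, was covered over 71.4% and 41.9% against 96.7% and 100%. Both partner genes had the same order as Slc7a5 and Slc16a3. Neighbouring genes were not checked for any of the 22, so an island counted here may belong to another gene. Txnip, which encodes a protein that lowers glucose uptake by taking GLUT1 from the membrane, was covered over 40.5% and 62.1% in epithelium and had no island in either fiber library. Txnip was 1 of 49 genes with islands in both epithelium libraries and in neither fiber library. Slc23a1, a carrier gene of ascorbate, was covered over 0% and 47.8% against 91.5% and 54.6%.

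A longer window can touch an island more easily, and the median length of members was 34.6 kb against 17.6 kb for all genes. Among the 24 members under 20 kb, 12, 14, 17 and 17 had an island, or 50%, 58.3%, 70.8% and 70.8%, against 27.2%, 30.7%, 46.1% and 50.1% of all genes of that length. Among the 45 members of 20 to 60 kb the shares were 24.4%, 35.6%, 42.2% and 51.1%, against 29.8%, 35.8%, 61.7% and 69.2%. Over 60 kb, 4, 6, 9 and 13 of 19 members had an island, or 21.1%, 31.6%, 47.4% and 68.4%, against 30.8%, 37.8%, 67.3% and 77.3%. The share of members lay above that of all genes in every library for the shortest class and below it for the others (nearly equal in epithelium replicate 2 for the middle class), and these differences were not tested. The number of genes in a class is small, and 21 members have another protein-coding gene in their window.

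**Figure D5:**
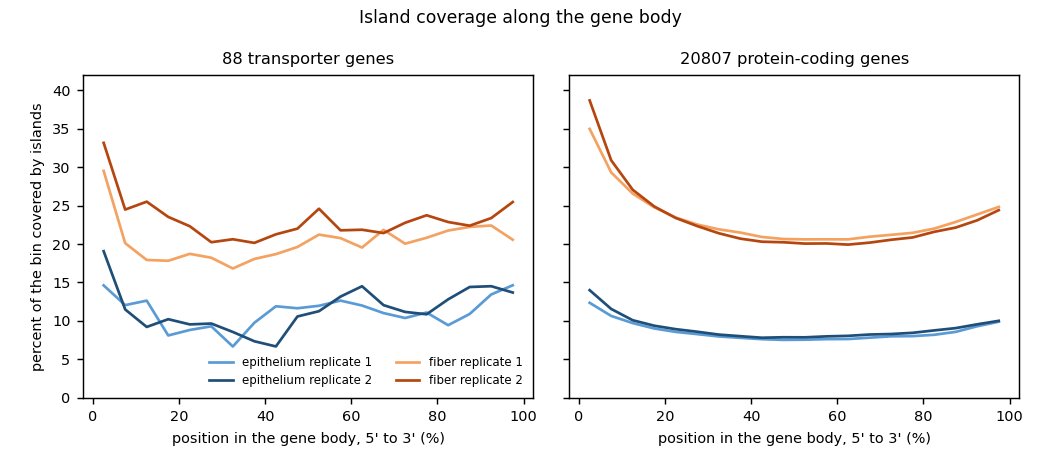
Percent of each of 20 equal bins of the gene body covered by H3.3 islands, from the 5′ end (left) to the 3′ end (right), for 88 transporter genes and for all 20807 protein-coding genes. Each line is 1 library. In the fiber libraries the first bin of the transporter genes is covered over 29.5% and 33.2%, the highest of any bin.

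Along the gene body, coverage of the members in the first of 20 equal bins was 14.6% and 19.1% in the epithelium libraries and 29.5% and 33.2% in the fiber libraries. In the last bin it was 14.6%, 13.7%, 20.6% and 25.5%. The 5′ end was the most widely covered part in 3 libraries, but in epithelium replicate 1 the last bin was as wide as the first. All genes had 12.4%, 14.0%, 35.0% and 38.7% in the first bin, so that the 5′ end of the members was covered less than that of all genes in fibers and more in epithelium.

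Members with an island at the start differed in base composition from those without. Over the 1001 bases around the GENCODE 5′ end, the median count of CpGs was 61 for the 30 members with a start island in both fiber libraries and 16 for the 30 members without an island. The ratio of observed to expected CpGs was at least 0.6 in 22 of the former (73.3%) and in 6 of the latter (20%). All genes of the same classes had medians of 65 and 10 CpGs, so this difference was not particular to the transporter genes. For the 13 members with a start island in both epithelium libraries the median was 33 CpGs, against 63 for all genes of that class. In each class a start island may lie at any annotated start, whereas CpGs were counted around the GENCODE 5′ end alone. At Slc7a4 and Slc38a4 the epithelium start islands began 3.16 kb or more into the gene, outside the bases counted. Slc38a8, whose printed run holds 5 CpGs, had 9 in the 1001 bases, and Slc38a2 had 96 and Slc2a1 80. No test was run on these counts.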

How the data were processed

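H3.3 ChIP-seq was done on 2 pooled libraries each of newborn CD-1 lens epithelium and fibers. The authors aligned 75-nt single-end reads to mm10 with BWA and called islands with SICER2 in each library. The deposited island lists hold the position and the read count of each island. By the names of the lists, SICER2 used 200-bp windows, gaps up to 600 bp, and an FDR of 0.01. Tool versions and the use of the control in calling are not given in the sources used here, and the total number of reads is unknown. Replicate counts therefore bear no correction for depth.

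Gene bodies came from GENCODE vM21 (mm10), with 1 kb added on each side. An island counted with 1 bp of overlap, coverage was the percent of the window in islands, and reads per kb was the sum of island reads over the sum of island lengths. A gene with no island counts as 0% covered and has no density. Slc7a6os, whose symbol matches the prefix and whose product is no carrier, was left out. Values of 2 against 2 libraries were compared by an exact two-sided permutation test, and no test was run for single genes. This test ranks the observed difference of means among 6 splits of these 4 libraries, and its p-value does not measure a spread. Wherever the compartments do not overlap, the exact permutation p is 0.33, however far apart they lie. Members and lists were chosen with earlier results of these data known. Genes were named by a fixed rule: 23 known carriers, the largest difference in each family and direction among members whose libraries did not overlap, and the densest members (5 in fibers, 3 in epithelium). Slc2a5, Slc2a8, the 8 members with islands in fibers alone, those with an island in epithelium alone, those ordered by density and the partner genes were named after their values were seen.

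A 75-nt read cannot be placed where its sequence occurs more than once. The median share of such positions in the windows was 0.866%, and 5 members had over 10% (Slc1a6, Slc2a10, Slc2a12, Slc6a20b and Slc7a15). Promoter bases came from the RefSeq table (65 of 88 members matched, and all 65 equal the genome). With 73.9% matched, a check of composition on that table is void, and CpGs were counted in the genome instead. Counting was tested on simulated islands with known answers. Numpy 2.4.6, scipy 1.17.1 and matplotlib 3.10.9 were used under Python 3.11.15. Alternatives were leaving out each library, other windows, stricter islands and equal numbers of islands. All p-values and counts cover called islands only.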

Additional observations from a re-analysis of the deposited data

How the results depend on the processing

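Differences are fiber minus epithelium. With the 10389 densest islands per library, genes with an island came to -1, mean coverage to -0.166 percentage points, start islands to -5.5 and the coverage of Slc2a, Slc16a and Slc38a to -2.20, -4.88 and -0.974, and that of Slc7a8 and Slc38a3 to -8.09 and -0.957. With the 10389 islands of most reads these values were 0.5 genes, 5.10 points, 4 start islands, 7.42, 1.71, 11.3, 11.3 and 32.5, in the same order, none of them reversed. Median reads per kb turned from -0.633 to 3.83 (densest), 0.913 (most reads) and 0.833 (islands at or above the library's median density), and to 0.00536 as a ratio to that median. With islands at or above the median density Slc7a8 came to -1.62, and with at least 50% of an island in the window Slc7a5 came to -22.1 and Slc16a3 to -24.7. Members higher in both fiber libraries numbered 13 (densest) and 15 (most reads) in place of 31. Those higher in both epithelium libraries numbered 6 (densest), 2 (most reads) and 2 (median density) in place of 1. These counts by order were not made over all genes, and the cause was not tested. Without one library in turn the differences were 13 to 22 genes, 8.65 to 11.4 points, -0.901 to -0.365 reads per kb and 11 to 18 start islands, with 33 to 46 members higher in fibers and 2 to 5 in epithelium. With the replicate number as a block (p = 0.5, the smallest that 2 pairs give, exact sign permutation) the values stayed 17.5 genes, 10.04 points and -0.633 reads per kb, and that of start islands was also as before. Same-numbered libraries did not deviate together (r = -0.00323 over all genes). With 2 libraries per compartment this cannot decide whether the numbers pair them. The block gives no value for counts of members by order. Genes without a called island may hold H3.3 under the caller's limit.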
